A study of Rattus norvegicus with 30 samples.

Results

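Dioctyl phthalate, a plasticiser, was given to primary rat hepatocytes, and 6 genes linked to the TGF-beta system are described here: the ligand genes Tgfb1, Tgfb2 and Tgfb3, the CCN genes Ccn2 and Ccn1, and the lysyl oxidase gene Lox. They were chosen by name, with earlier results of these arrays known. The platform's gene table assigned 8 probe sets to them, of 31042 probe sets that are not controls, and they are 6 of 14217 genes with a probe set of their own. Tgfb2 and Lox had 2 probe sets each, and the one of higher mean signal is called the main one. Their Entrez gene IDs are 59086 (Tgfb1), 81809 (Tgfb2), 25717 (Tgfb3), 64032 (Ccn2), 83476 (Ccn1) and 24914 (Lox).

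The cells were purchased frozen hepatocytes of male Sprague Dawley rats, thawed, grown on collagen under Matrigel and dosed on day 3 of culture. The groups were 1000 µM, 250 µM and vehicle (1% DMSO) at 48 h, and 1000 µM, 250 µM and vehicle at 24 h, with 5 wells per group and 1 array per well, 30 arrays in all. The dosed wells also held 1% DMSO. How many rats or vials supplied the wells is not stated, so errors and p-values measure the spread between wells. Signals are the authors' linear intensities. A log2 change is the difference between group means of log2(signal + 1), given with its standard error (SE) from limma, and it understates the change of dim probe sets. A gene is called where the Benjamini-Hochberg adjusted p from limma, over 10528 tested genes, was under 0.05.

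Levels under dioctyl phthalate against vehicle were among the results known when the genes were chosen, so they are given as a description without a test. Tests are given for 1000 against 250 µM, for 48 against 24 h in vehicle, and for the difference between the times in the effect of each dose. The last of these is built from the same comparisons with vehicle and is not independent of them.

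TGF-beta ligands are secreted in a latent form, released at the cell surface or in the matrix, and signal through a pair of kinase receptors to SMAD transcription factors. Ccn2 (connective tissue growth factor) and Ccn1 (Cyr61) encode secreted matrix-associated proteins whose genes are known targets both of TGF-beta and of the YAP/TAZ co-activators, which act through TEAD factors. Lox encodes lysyl oxidase, the copper enzyme that starts the cross-linking of collagen and elastin, and is also a known TGF-beta target. In liver this system is best known for its part in fibrosis, where stellate cells make most of the matrix. Cultured hepatocytes are known to express Ccn2 too.

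Ccn2 was the member with the largest difference: its signal was 11.3% to 14.9% of that in vehicle under both doses at both times. Ccn1 was at 54.1% to 61.2% of its level in vehicle. Lox was at 52.2% (1000 µM) and 47.2% (250 µM) of its level in vehicle at 48 h, with overlapping groups at 24 h. Of the ligands, Tgfb2 was about 3.19-fold higher at 48 h than at 24 h in vehicle, a change seen by 1 of its 2 probe sets, while Tgfb1 and Tgfb3 stayed near or under the low-signal limit. These percentages are ratios of geometric means, with the SE given below on the log2 scale.

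The proximal promoters of the CCN genes are shown because both genes had lower signals in all 4 comparisons with vehicle and both are known TEAD and SMAD targets. Each is the 250 bases before the start that a RefSeq table for build GRCr8 gives the gene, printed on the gene's strand. Capitals mark the TEAD motif GGAATG, on either strand, and the SMAD motif CAGACA.
Ccn2 promoter, chr1:22624615-22624864, minus strand: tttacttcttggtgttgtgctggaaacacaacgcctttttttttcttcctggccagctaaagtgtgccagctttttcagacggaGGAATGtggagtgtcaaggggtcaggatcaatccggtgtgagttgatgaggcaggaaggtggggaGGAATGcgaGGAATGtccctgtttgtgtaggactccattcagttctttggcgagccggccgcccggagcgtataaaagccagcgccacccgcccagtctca
Ccn1 promoter, chr2:237225690-237225939, minus strand: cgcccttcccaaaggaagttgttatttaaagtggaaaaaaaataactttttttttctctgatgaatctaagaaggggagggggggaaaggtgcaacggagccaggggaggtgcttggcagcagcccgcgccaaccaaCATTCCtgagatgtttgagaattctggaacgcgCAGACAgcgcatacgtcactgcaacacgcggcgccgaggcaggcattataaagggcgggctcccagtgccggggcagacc

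Ccn2 held 3 TEAD matches, all on its own strand, at 166 to 161, 101 to 96 and 92 to 87 bases before the start. The exact SMAD string CAGACA had 0 matches in Ccn2. Ccn1 held 1 TEAD match on the opposite strand, printed as CATTCC, at 113 to 108 bases before the start, and 1 SMAD match at 80 to 75 bases. Stretches that differ from CAGACA in the last letter were not counted. Such are cagacg in Ccn2, just before its first TEAD match, and cagacc at the end of Ccn1. The search therefore does not show that Ccn2 lacks a SMAD site. Among 33469 promoters of this length, 12.1% held the TEAD motif at least once and 0.0807% (27 promoters) at least 3 times, while 17.2% held the SMAD motif. Both strands were also searched for the AP-1 motif TGANTCA (6.34% of all promoters), the CArG box bound by SRF (1.5%) and the PPRE, 2 copies of AGGTCA with 1 base between them (0.0508%). None of these 3 was found in these letters in the promoters of Ccn2, Ccn1, Tgfb1, Tgfb2 or Tgfb3, and the 3 ligand genes held no TEAD or SMAD match either. For Tgfb2 and Tgfb3 the stretch searched lies inside the gene span given below, since the table's start is not the outermost one. A match is a string of letters, and binding was not measured. The table had an entry for 5 of the 6 genes, and Lox had none.

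By RefSeq's GRCr8 annotation the genes lie at chr1:22621498-22624614 (Ccn2), chr2:237222730-237225689 (Ccn1), chr1:90324312-90340627 (Tgfb1), chr13:100691540-100793227 (Tgfb2), chr6:111435170-111457646 (Tgfb3) and chr18:48162889-48175640 (Lox). No position within a gene is given for the probe sets.

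Within groups, log2 signals of pairs of arrays correlated at 0.968 to 0.986 across genes. The hepatocyte label was checked against 10 marker genes: 9 were on the array and all 9 were above the low-signal limit, among them Alb (albumin) with a mean signal of 64120. Of 12 stellate cell and myofibroblast markers 6 were above the limit. These were Vim (mean signal 6572), Acta2 (1031), Col3a1 (937.5), Des (491.5), Col1a1 (486.3) and Reln (417.2). Under it were Col1a2 (227.9), Dcn (172), Pdgfrb (85.5), Lum (58.7), Lrat (47.8) and Postn (11.8). Above the limit were also 7 of 10 Kupffer cell and leukocyte markers, 3 of 8 endothelial markers and 1 of 5 cholangiocyte markers, Epcam. The 3'/5' log2 ratio of the beta-actin control probe sets, a sign of RNA quality, averaged 1.30 ± 0.137, 1.15 ± 0.157 and 1.72 ± 0.494 in 1000 µM, 250 µM and vehicle at 48 h (SD, n = 5), and 1.14 to 1.16 in the 3 groups at 24 h. It was raised on vehicle 48 h replicates 1, 2, 3 and 5 (2.44, 1.74, 1.70 and 1.66) and not on replicate 4 (1.04). For the main probe sets of the members, 48 h changes against vehicle are also given without those 4 arrays. The same is not given for second probe sets, single genes of the lists, cell type markers, or the collagen maturation and other CCN lists. The fit without those arrays leaves 1 vehicle array at 48 h, which is assumed to vary like the other groups. Far fewer of all tested genes were called in it, so its calls are not set against shares of the full fit. In bulk samples, fewer cells of a type and less RNA per cell cannot be told apart.

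Tgfb1, the ligand most studied in liver fibrosis, was the dimmest member. Its signal lay between 8.33 and 34.1 on the 30 arrays, with a limit of 234 for low signals, and its mean lay at percentile 2.48 of all probe sets. All 30 arrays were under the limit and the groups overlapped, so no level and no difference is given for it. A low array signal does not show that the RNA was absent.

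Tgfb3 was also left out of the tests by the filter on low signals. Its signal ranged from 156 to 287 in 1000 µM, from 115 to 272 in 250 µM and from 198 to 274 in vehicle at 48 h. At 24 h it ranged from 114 to 227 in 1000 µM, from 120 to 239 in 250 µM and from 142 to 224 in vehicle. The groups overlapped throughout, and in each of them 2 to 5 of the 5 arrays were under the limit.

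Tgfb2 was the ligand with a signal above the limit in all group means. On its main probe set the 48 h signals were 878, 1234, 887, 941 and 1097 in 1000 µM, 1047, 694, 872, 841 and 750 in 250 µM, and 1449, 1533, 1616, 1280 and 1332 in vehicle. All 10 dosed arrays lay below all 5 vehicle arrays at 48 h. The 24 h signals were 454, 464, 526, 529 and 601 in 1000 µM, 628, 512, 449, 361 and 557 in 250 µM, and 719, 582, 439, 641 and 155 in vehicle. The 24 h groups overlapped, and vehicle replicate 5 stood below all others and under the limit. The log2 change was -0.53 at 1000 µM and -0.79 at 250 µM at 48 h, and 0.19 and 0.13 at 24 h (SE 0.24 each). Without vehicle 24 h replicate 5 the 24 h values were -0.19 and -0.25, so the sign at 24 h rested on that array. Without the 4 vehicle arrays of raised actin ratio the 48 h values were -0.36 and -0.62 (SE 0.45).

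In vehicle, Tgfb2 rose with culture time: its main probe set averaged 1442 ± 139 at 48 h and 507 ± 222 at 24 h (SD, n = 5), a log2 change of 1.68 ± 0.24 (limma adjusted p = 4.84e-06). All 5 arrays at 48 h lay above all 5 at 24 h. Only 5 of the 10528 tested genes had a larger rise, and 28.1% of tested genes were called in this comparison, 16.4% as higher, while in 6.19% all 48 h arrays lay above all 24 h arrays. Leaving out the dim vehicle 24 h replicate 5 gave 1.29 (adjusted p = 3.89e-07). Taking out the 4 vehicle 48 h arrays of raised actin ratio gave 1.51 ± 0.45, which no longer passed (adjusted p = 0.101). The actin ratio's part in the rise was not tested beyond this and a fit with the ratio as a covariate, which gave 1.57 ± 0.31 (adjusted p = 0.0014).

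The second Tgfb2 probe set did not show this rise. Its signals in vehicle were 384, 302, 687, 705 and 605 at 48 h and 456, 203, 571, 452 and 630 at 24 h, which overlap. With every probe set tested on its own, its log2 change was 0.23 ± 0.39 (limma adjusted p = 0.699). Across the 30 arrays the 2 probe sets had a Pearson correlation of 0.0314, a description of arrays that share groups. In the dosed groups the second probe set ranged from 81.3 to 701, and its log2 changes against vehicle were -0.19 and -0.46 at 48 h and -0.42 and -0.04 at 24 h for 1000 and 250 µM (SE 0.39), with overlapping groups. Statements on Tgfb2 above therefore hold for its main probe set, and the cause of the disagreement was not tested.

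Ccn2 had a lower signal on every dosed array than on any vehicle array. At 48 h the signals were 1921, 2243, 1586, 1975 and 1649 in 1000 µM, 1592, 1453, 1411, 1344 and 1229 in 250 µM, and 13788, 13316, 12250, 11309 and 11776 in vehicle. At 24 h they were 1887, 1465, 1539, 1732 and 1678 in 1000 µM, 1784, 1497, 1315, 1377 and 1260.0 in 250 µM, and 13626, 11857, 12152, 10906 and 10920.0 in vehicle. The highest dosed array, at 2243, lay well below the lowest vehicle array, at 10906, so the groups did not overlap at either time. The log2 change was -2.74 at 1000 µM and -3.15 at 250 µM at 48 h, and -2.84 and -3.04 at 24 h (SE 0.10 each). The geometric mean was 6.69-fold and 8.89-fold lower at 48 h, and 7.16-fold and 8.25-fold lower at 24 h. Among the 10528 tested genes Ccn2 ranked first for the size of its decrease at 250 µM and 24 h and second in the other 3 comparisons, which describes the values that chose it. Without the 4 vehicle arrays of raised actin ratio the 48 h changes were -2.60 and -3.01.

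Ordered by mean signal, the groups of Ccn2 were vehicle at 48 h (12488 ± 1040), vehicle at 24 h (11892 ± 1117), 1000 µM at 48 h (1875 ± 266), 1000 µM at 24 h (1660 ± 166), 250 µM at 24 h (1446 ± 208) and 250 µM at 48 h (1406 ± 134; SD, n = 5). The arrays of each pair of neighbours in this order overlapped, except vehicle and 1000 µM. The smaller dose had the lower mean at both times. Ccn2 at 1000 minus 250 µM was 0.41 ± 0.10 at 48 h (limma adjusted p = 0.0981) and 0.20 ± 0.10 at 24 h (adjusted p = 1), neither past the threshold. Between the doses 0.0665% of tested genes (7) were called at 48 h and 0.0190% (2) at 24 h. The 48 h difference passed with sets of 6 consecutive array numbers as a block (0.41, adjusted p = 0.0174) and without 1000 µM 48 h replicate 3 (0.47, adjusted p = 0.0346), and over the other alternatives it stayed above the threshold.

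Ccn2 did not change detectably with culture time in vehicle (log2 change 0.07 ± 0.10, limma adjusted p = 0.624). The effect of 1000 µM differed by 0.10 ± 0.14 between 48 and 24 h (adjusted p = 0.84) and that of 250 µM by -0.11 ± 0.14 (adjusted p = 0.69). Its lower level was present at the first time measured, and no change in the difference was detected afterwards.

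**Figure D1:**
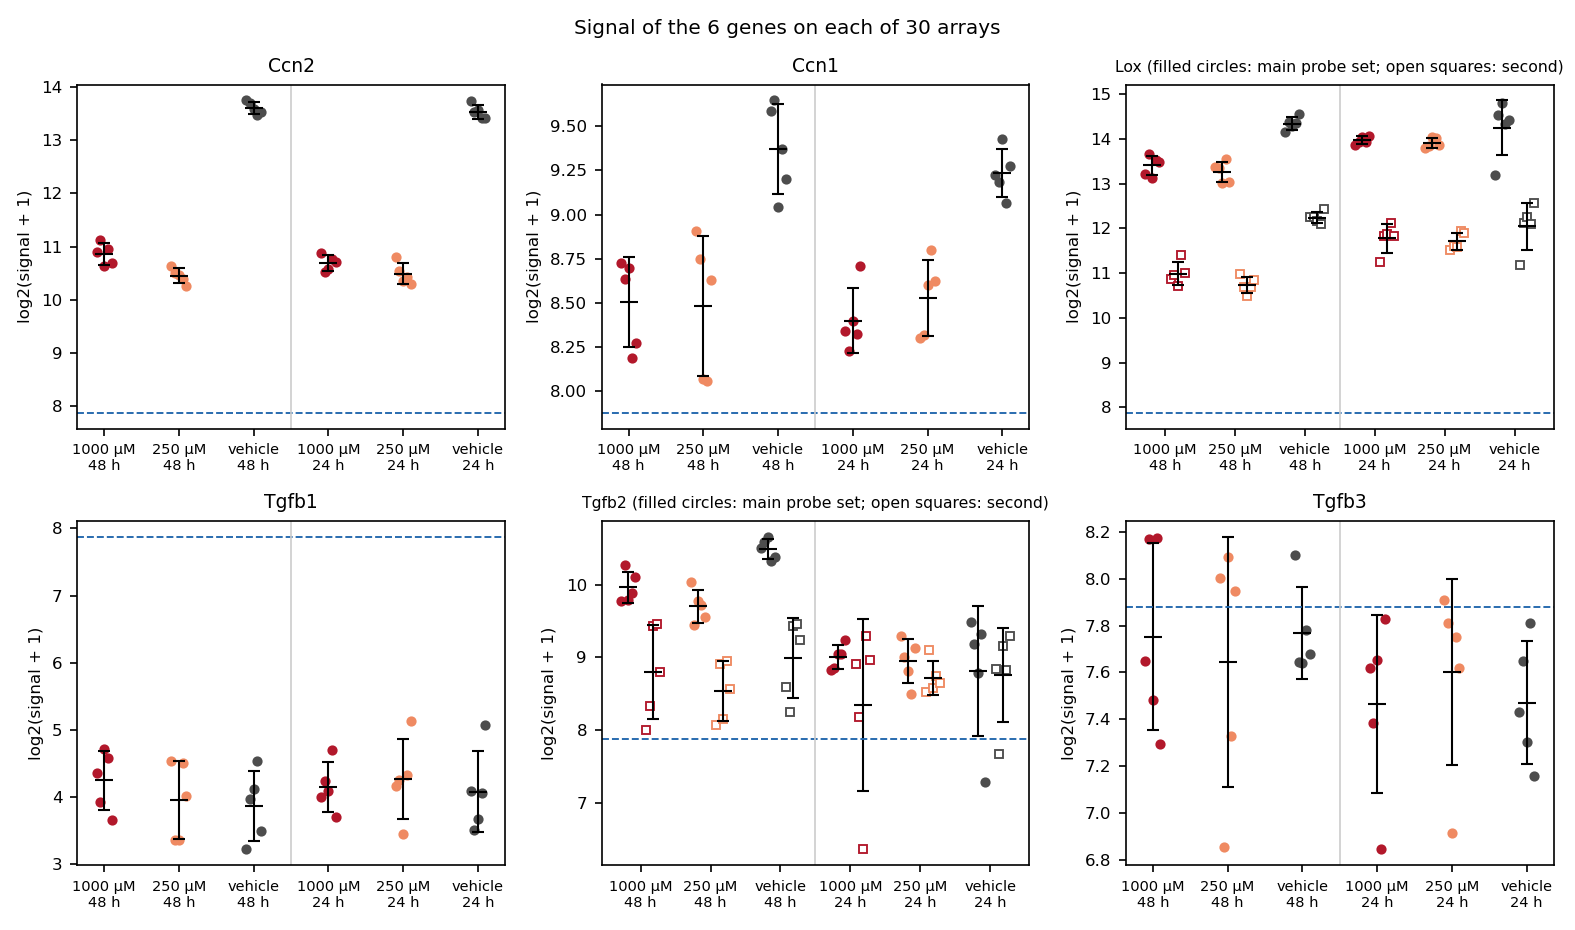
Log2(signal + 1) of each member on each of the 30 arrays (points, 5 per group), with the group mean and SD (bars), from 1000 µM, 250 µM and vehicle at 48 h on the left to the same groups at 24 h on the right. The dashed line is the low-signal limit. Ccn2 lies between 10.3 and 11.1 on dosed arrays and between 13.4 and 13.8 on vehicle arrays.

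Ccn1 was lower too, by a smaller amount. Its 48 h signals were 422, 396, 415, 291 and 309 in 1000 µM, 478, 429, 267, 265 and 395 in 250 µM, and 767, 801, 526, 660.0 and 588 in vehicle. The 24 h signals were 323, 298, 336, 319 and 418 in 1000 µM, 314, 318, 387, 444 and 393 in 250 µM, and 597, 581, 688, 534 and 618 in vehicle. Every dosed array lay below every vehicle array of its time, the closest being 478 in 250 µM against 526 in vehicle at 48 h. The log2 change was -0.86 at 1000 µM and -0.89 at 250 µM at 48 h, and -0.84 and -0.71 at 24 h (SE 0.17 each). Its 48 h values without the 4 vehicle arrays of raised actin ratio were -0.86 and -0.89, with a larger SE of 0.31. No difference was detected for Ccn1 between the doses (0.02 ± 0.17 at 48 h, limma adjusted p = 0.971, and -0.13 ± 0.17 at 24 h, adjusted p = 1). In vehicle it differed by 0.13 ± 0.17 between 48 and 24 h (adjusted p = 0.609), and the effect of the doses differed between the times by -0.03 ± 0.25 at 1000 µM (adjusted p = 0.98) and -0.18 ± 0.25 at 250 µM (adjusted p = 0.712). Over all 30 arrays Ccn1 and Ccn2 had a Pearson correlation of 0.854, and 0.0959 once group means were taken out, so their likeness lies between groups.

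Of the other CCN genes, 4 were on the array and Ccn3 and Ccn5 were bright enough to test. Neither was called in any of the 9 comparisons, where their log2 changes against vehicle had a median of 0.13 and -0.11 at 48 h and 0.08 and 0.17 at 24 h for 1000 and 250 µM. The corresponding medians over all tested genes were -0.04, -0.07, -0.03 and -0.03.

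Lox had lower signals under both doses at 48 h, while its groups overlapped at 24 h. On the main probe set the 48 h signals were 9571, 12941, 9004, 11830.0 and 11421 in 1000 µM, 10638, 10422, 8209, 11928 and 8404 in 250 µM, and 18170.0, 21184, 20104, 20929 and 23949 in vehicle. All dosed arrays lay below all vehicle arrays at 48 h. The 24 h signals were 14864, 15699, 16951, 15694 and 17150.0 in 1000 µM, 14243, 14680.0, 16938, 16535 and 14924 in 250 µM, and 9433, 23579, 28458, 20508 and 21842 in vehicle. The 24 h groups overlapped through vehicle replicate 1 (9433), and the other 4 vehicle arrays lay above all dosed arrays. The log2 change was -0.94 at 1000 µM and -1.08 at 250 µM at 48 h, and -0.28 and -0.34 at 24 h (SE 0.16 each). Without vehicle 24 h replicate 1 the 24 h changes were -0.54 and -0.60 (SE 0.11). The 48 h changes without the 4 vehicle arrays of raised actin ratio were -0.95 and -1.09 (SE 0.30).

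The second Lox probe set followed the main one, with a Pearson correlation of 0.916 over the 30 arrays and 0.693 within groups. Its 48 h signals ranged from 1679 to 2723 in 1000 µM, from 1447 to 2012 in 250 µM and from 4403 to 5570.0 in vehicle. At 24 h they ranged from 2418 to 4457 in 1000 µM, from 2913 to 3962 in 250 µM and from 2315 to 6031 in vehicle, where replicate 1 was again the lowest. Its log2 changes were -1.25 at 1000 µM and -1.50 at 250 µM at 48 h, and -0.26 and -0.34 at 24 h (SE 0.17 each).

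**Figure D2:**
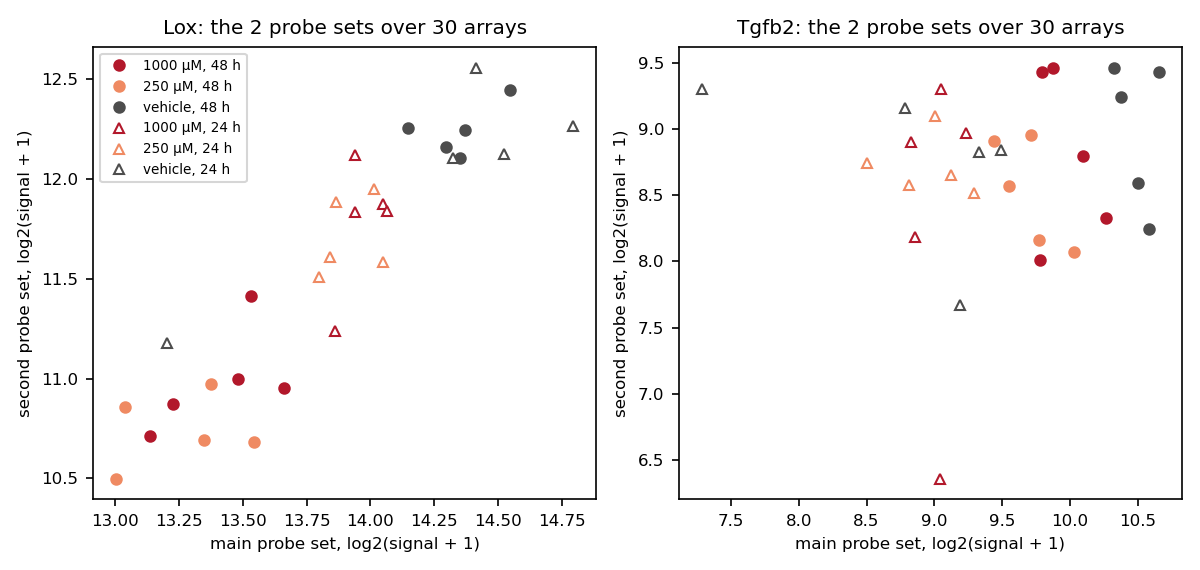
The 2 probe sets of Lox (left) and of Tgfb2 (right) against each other over 30 arrays, both axes in log2(signal + 1), filled circles for 48 h and open triangles for 24 h, coloured by dose. The Lox probe sets rise together (r = 0.916), with vehicle 24 h replicate 1 apart from its group at the lower left, and the Tgfb2 probe sets do not (r = 0.0314).

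The difference between times in the effect on Lox was tested in one model. At 250 µM the effect was more negative at 48 h than at 24 h by 0.74 on the log2 scale (-0.74 ± 0.23, limma adjusted p = 0.0423), in a comparison in which 8.36% of tested genes were called, 4.52% as lower. At 1000 µM the difference was -0.65 ± 0.23 and was not called (adjusted p = 0.223, with 0.969% of tested genes called). With every probe set tested on its own, the second Lox probe set had -1.16 ± 0.24 at 250 µM (adjusted p = 0.00323) and -0.99 ± 0.24 at 1000 µM (adjusted p = 0.0433). In that same fit without vehicle 24 h replicate 1, the values at 250 µM were -0.48 ± 0.15 on the main probe set (adjusted p = 0.0332) and -0.95 ± 0.19 on the second (adjusted p = 0.00176), and at 1000 µM -0.39 ± 0.15 (adjusted p = 0.201) and -0.77 ± 0.19 (adjusted p = 0.0308). The call on the main probe set at 250 µM was lost with array medians centred (adjusted p = 0.119), with the actin ratio as a covariate (adjusted p = 0.183) and without the 4 vehicle arrays of raised ratio (-0.75, adjusted p = 0.492).

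Lox did not change detectably with time in vehicle (0.09 ± 0.16, limma adjusted p = 0.728, or -0.17 without vehicle 24 h replicate 1). No difference between 1000 and 250 µM was detected for it at 48 h (0.14 ± 0.16, adjusted p = 0.757) or 24 h (0.06 ± 0.16, adjusted p = 1). The same held for the main probe set of Tgfb2 (0.26 ± 0.24 at 48 h, adjusted p = 0.69, and 0.06 ± 0.24 at 24 h, adjusted p = 1). For Tgfb2 the effect of 250 µM differed between the times by -0.92 ± 0.34 (adjusted p = 0.0867) and that of 1000 µM by -0.71 ± 0.34 (adjusted p = 0.416). The value at 250 µM passed only without vehicle 24 h replicate 1 (-1.09, adjusted p = 0.0308), and it was -0.54 without replicate 5.

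**Figure D3:**
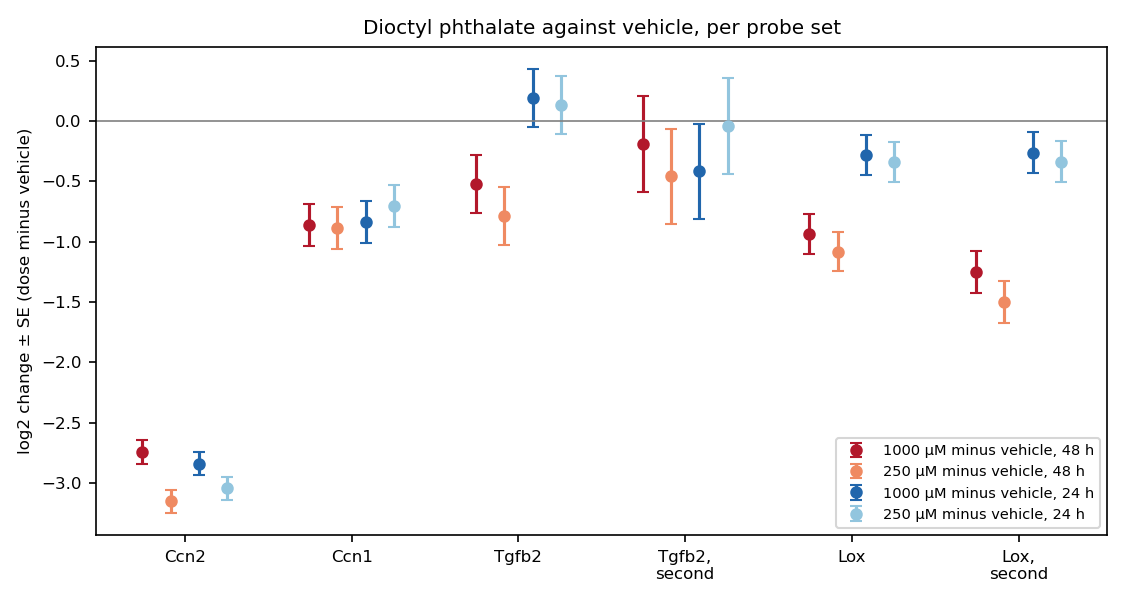
Log2 change against vehicle (points, with SE bars) of the members above the low-signal limit, with both probe sets of Tgfb2 and Lox, for 1000 and 250 µM at 48 h (reds) and at 24 h (blues). Ccn2 lies between -2.74 and -3.15 in all 4 comparisons, and both Lox probe sets lie lower at 48 h than at 24 h.

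Of the 6 members, 4 passed the filter on low signals. How many of them were called against vehicle is not given, since these comparisons were known when the genes were chosen. At 48 h 29.7% (1000 µM) and 41.2% (250 µM) of all tested genes were called, with 1207 higher and 1925 lower, and 1604 and 2738. At 24 h 19.5% and 19.3% were called, with 872 higher and 1179 lower, and 875 and 1155. Ccn2, Ccn1 and the main probe sets of Tgfb2 and Lox had all dosed arrays below all vehicle arrays at both doses at 48 h, as did 10.9% (1000 µM) and 15.1% (250 µM) of tested genes. At 24 h this held for Ccn2 and Ccn1, and for 7.81% and 8.0% of tested genes. The members were chosen with these comparisons known, and nothing is read from how many of them lay below vehicle. The comparisons at one time share their vehicle arrays. With array medians centred, the called genes at 24 h numbered 677 higher and 607 lower at 1000 µM and 645 higher and 682 lower at 250 µM. In vehicle over time they numbered 1692 higher and 469 lower, against 1731 and 1232.

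Genes whose log2 signal followed Ccn2 most closely over the 30 arrays were Ivns1abp (Pearson r = 0.983), Depp1 (0.981), Hao2 (0.981), Klf6 (0.978), Retreg1 (0.974) and Rab11fip5 (0.973), of 10527 genes compared. All 6 had lower means under both doses: Rab11fip5, a Rab11-binding trafficking protein, had log2 changes of -1.58 and -1.96 at 48 h and -1.38 and -1.53 at 24 h for 1000 and 250 µM. Hao2, a peroxisomal hydroxyacid oxidase, had -1.41, -1.62, -1.75 and -1.71 in the same order. Genes running most nearly opposite to Ccn2 were Pex11a (r = -0.992), Eci2 (-0.990) and Cyp4a3 (-0.988). Pex11a acts in peroxisome division, Eci2 in the oxidation of unsaturated fatty acids and Cyp4a3 in fatty acid hydroxylation. Pex11a had mean signals of 19670, 21330 and 10650 in 1000 µM, 250 µM and vehicle at 48 h, and 21500, 22170 and 10610 at 24 h. The arrays share 6 groups, so these correlations are descriptions and mostly reflect which genes separated dosed from vehicle arrays.

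The wider pathway was described with lists that do not contain the 6 members. Among genes that release TGF-beta or act as its receptors, 8 of 16 were tested. At 1000 µM, 1 was called higher at 48 h (Nrros, which tethers latent TGF-beta on myeloid cells, 0.40 ± 0.14, limma adjusted p = 0.0292), and 1 at 24 h. At 24 h that gene was Ltbp1, which binds latent TGF-beta in the matrix, with 0.76 ± 0.19 at 1000 µM and 0.85 ± 0.19 at 250 µM at 24 h (adjusted p = 0.00425 and 0.00129). At 250 µM, 2 were called lower at 48 h, the receptor gene Tgfbr1 (-0.32 ± 0.08) and the integrin gene Itgav (-0.30 ± 0.11, lost with array medians centred). When the 4 vehicle arrays of raised actin ratio were left out, both calls at 250 µM and 48 h were lost, as were most calls over all tested genes. At 1000 µM and 48 h a gene of this list was still called higher. At 24 h, 2 were called higher at 250 µM, Ltbp1 and the co-receptor gene Eng (0.64 ± 0.21). The median log2 change of the list was 0.05, 0.01, 0.07 and 0.16 in 1000 and 250 µM at 48 h and 1000 and 250 µM at 24 h, against -0.04, -0.07, -0.03 and -0.03 over all tested genes. Over all tested genes, in the same order, 11.5%, 15.2%, 8.28% and 8.31% were called higher and 18.3%, 26%, 11.2% and 11% lower, and these shares are the background of each list below.

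Among 18 tested genes for SMADs and for inhibitors of the pathway, 0 were called higher and 3 lower at 1000 µM and 1 higher and 3 lower at 250 µM at 48 h, and 1 higher and 3 lower at each dose at 24 h. Of all tested genes 29.7%, 41.2%, 19.5% and 19.3% were called either way in the same comparisons, so 3 to 4 of 18 was below the background at 48 h and near it at 24 h. Skil (SnoN), a SMAD co-repressor that TGF-beta induces, fell at 48 h, with log2 changes of -0.44 and -0.53 at 1000 and 250 µM (SE 0.10, limma adjusted p = 0.00074 and 4.83e-05) and had -0.38 and -0.27 at 24 h. Tgif1, another SMAD co-repressor, had -0.32 ± 0.08 and -0.34 ± 0.08 at 48 h. Smad1, a SMAD of the BMP branch, had changes of -0.16 to -0.26 in the 4 comparisons. Bambi, a decoy receptor, had -0.37 and -0.41 at 24 h (SE 0.13). Also called were Tgif2 (0.54 ± 0.22, 250 µM, 48 h), Smurf2, which marks SMADs and receptors for breakdown (0.23 ± 0.07, 1000 µM, 24 h), and Ppm1a, a SMAD phosphatase (0.19 ± 0.06, 250 µM, 24 h). With array medians centred, 0 genes of this list stayed called at 1000 µM and 1 (Bambi) at 250 µM at 24 h, and Smad1 was called in none of the 4 comparisons. When the 4 vehicle arrays of raised actin ratio were left out, every 48 h call of this list was lost, as were most calls over all tested genes.

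Known TGF-beta target genes split in direction. Of 21 tested, 3 were called higher and 7 lower at 1000 µM and 4 higher and 8 lower at 250 µM at 48 h, and 3 higher and 6 lower at each dose at 24 h. With array medians centred, 3 were called higher and 5 lower at 1000 µM and 48 h. At 250 µM and 48 h these were 4 and 7, and at each dose at 24 h 2 and 4. Without the 4 vehicle arrays of raised actin ratio, far fewer were called at 48 h, as over all tested genes. The list's median log2 change was -0.17, -0.21, -0.09 and -0.01, against -0.04, -0.07, -0.03 and -0.03 over all tested genes. Fn1, the matrix protein fibronectin, fell at both doses, with log2 changes at 1000 and 250 µM of -1.22 and -1.51 at 48 h and -0.81 and -0.84 at 24 h (SE 0.07, largest limma adjusted p = 1.17e-11). Vim, the intermediate filament vimentin, fell too (-1.41 and -1.70 at 48 h, -1.19 and -1.28 at 24 h, SE 0.09). Tgfbi, a matrix protein named for its induction by TGF-beta, fell less (-0.55 and -0.70 at 48 h, -0.52 and -0.58 at 24 h, SE 0.08). Id1, an inhibitor of helix-loop-helix factors best known as a BMP target, rose by 1.00 and 1.10 at 48 h and by 0.98 and 1.02 at 24 h (SE 0.12). In none of these 4 genes, named for their small p, did a dosed array reach the vehicle arrays of its time. All dosed arrays lay below all vehicle arrays in 10.9% and 15.1% of tested genes at 48 h (1000 and 250 µM). At 24 h these shares were 7.81% and 8.0%. No such share is given for genes that rose, such as Id1.

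Vim is also on the stellate cell list, whose summed signal per array ranged from 7819 to 9313 in 1000 µM, from 7353 to 8424 in 250 µM and from 15995 to 17151 in vehicle at 48 h. At 24 h the sum ranged from 7511 to 8780 in 1000 µM, from 7497 to 8305 in 250 µM and from 10640 to 16033 in vehicle. Vim made up most of that difference, with means of 4736, 3870 and 12610 in 1000 µM, 250 µM and vehicle at 48 h. Of the 6 markers of that list above the limit, Vim was called lower in all 4 comparisons. Acta2, the smooth muscle actin of activated stellate cells, was called lower at 24 h only, with -0.46 ± 0.14 at each dose and means of 899, 912 and 1236 in 1000 µM, 250 µM and vehicle. Col1a1, a fibrillar collagen gene, was called higher at 250 µM and 48 h (0.78 ± 0.21, limma adjusted p = 0.00373), with means of 460, 602 and 351 in 1000 µM, 250 µM and vehicle at 48 h. Of 9 hepatocyte markers, 1 was called higher and 3 lower at each dose at 48 h. At 24 h these were 1 and 2. Of 7 Kupffer cell and leukocyte markers, 1 was called higher and 1 lower at 1000 µM and 48 h. At 250 µM and 48 h 1 was called higher, and at 24 h 0. Epcam was called lower at 1000 µM and 48 h, and 0 of 3 endothelial markers were called. Of all tested genes 29.7% and 41.2% were called at 48 h and 19.5% and 19.3% at 24 h. Whether cell makeup moved with Ccn2 or Lox was not tested.

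Among the other lysyl oxidases and the enzymes that mature collagen, 9 of 15 were tested. P4ha2, a collagen prolyl hydroxylase subunit, fell at both doses, with log2 changes at 1000 and 250 µM of -0.68 and -0.89 at 48 h (limma adjusted p = 1.59e-07 and 5.24e-10) and -0.30 and -0.34 at 24 h (SE 0.09). Plod1, a collagen lysyl hydroxylase, rose by 0.26 and 0.23 at 48 h and by 0.46 and 0.46 at 24 h (SE 0.06). Bmp1, the procollagen C-proteinase, had -0.44 ± 0.17 at 250 µM and 48 h (adjusted p = 0.0302). No other gene of the list was called against vehicle. With array medians centred, Plod1 was not called at 1000 µM and 48 h, P4ha2 not at 1000 µM and 24 h, and Bmp1 not at all against vehicle.

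In the YAP/TAZ-TEAD list 26 of 31 genes were tested, and 8 were called lower at 1000 µM and 11 at 250 µM at 48 h, against 2 at each dose at 24 h, with 0 called higher. Of all tested genes 18.3% and 26% were called lower at 48 h and 11.2% and 11% at 24 h, and 2 of 26 lies under the share at 24 h. The list's median log2 change was -0.18 and -0.37 at 48 h and -0.12 and -0.04 at 24 h, against -0.04, -0.07, -0.03 and -0.03 over all tested genes. Tead1, a TEAD factor, fell at 1000 and 250 µM (-0.50 and -0.55 at 48 h, -0.52 and -0.49 at 24 h, SE 0.08, largest limma adjusted p = 6e-06). The 48 h calls included genes of the Hippo kinase arm, which is known to restrain YAP. They were Sav1 (-0.51 and -0.73, SE 0.11), Lats2 (-0.39 and -0.49, SE 0.09) and Lats1 (-0.36 and -0.53, SE 0.08). At 24 h the other call was Amotl1 (-1.06 ± 0.38) at 1000 µM and Amotl2 (-0.33 ± 0.11) at 250 µM, both angiomotin-like proteins. With array medians centred, 1 gene of this list was called lower at each dose at 24 h. When the 4 vehicle arrays of raised actin ratio were left out, far fewer genes of this list were called lower at 48 h, as over all tested genes.

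Immediate early genes, which respond within minutes to growth factors and strain, had 8 and 9 of 16 tested members called lower at 1000 and 250 µM at 48 h and 8 and 9 at 24 h, and 0 called higher. The shares of all tested genes called lower were those given above, 18.3% and 26% at 48 h and 11.2% and 11% at 24 h. The list's median log2 change was -0.30 and -0.35 at 48 h and -0.33 and -0.39 at 24 h, against -0.04, -0.07, -0.03 and -0.03 over all tested genes. Klf6, a zinc finger factor, fell at 1000 and 250 µM (-0.77 and -1.01 at 48 h, -0.91 and -0.94 at 24 h, SE 0.06, largest limma adjusted p = 9.86e-13). Jun, an AP-1 subunit, fell (-0.56 and -0.59 at 48 h, -0.58 and -0.60 at 24 h, SE 0.05). Ier3 fell as well (-0.74 and -0.66 at 48 h, -0.75 and -0.79 at 24 h, SE 0.07). Atf3, a stress-induced factor, fell at 48 h (-0.74 and -0.67), and Jund, another AP-1 subunit, at 24 h (-0.30 and -0.34). Without the 4 vehicle arrays of raised actin ratio, fewer genes of this list were called lower at 48 h. Far fewer TGF-beta targets were called then, as over all tested genes.

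**Figure D4:**
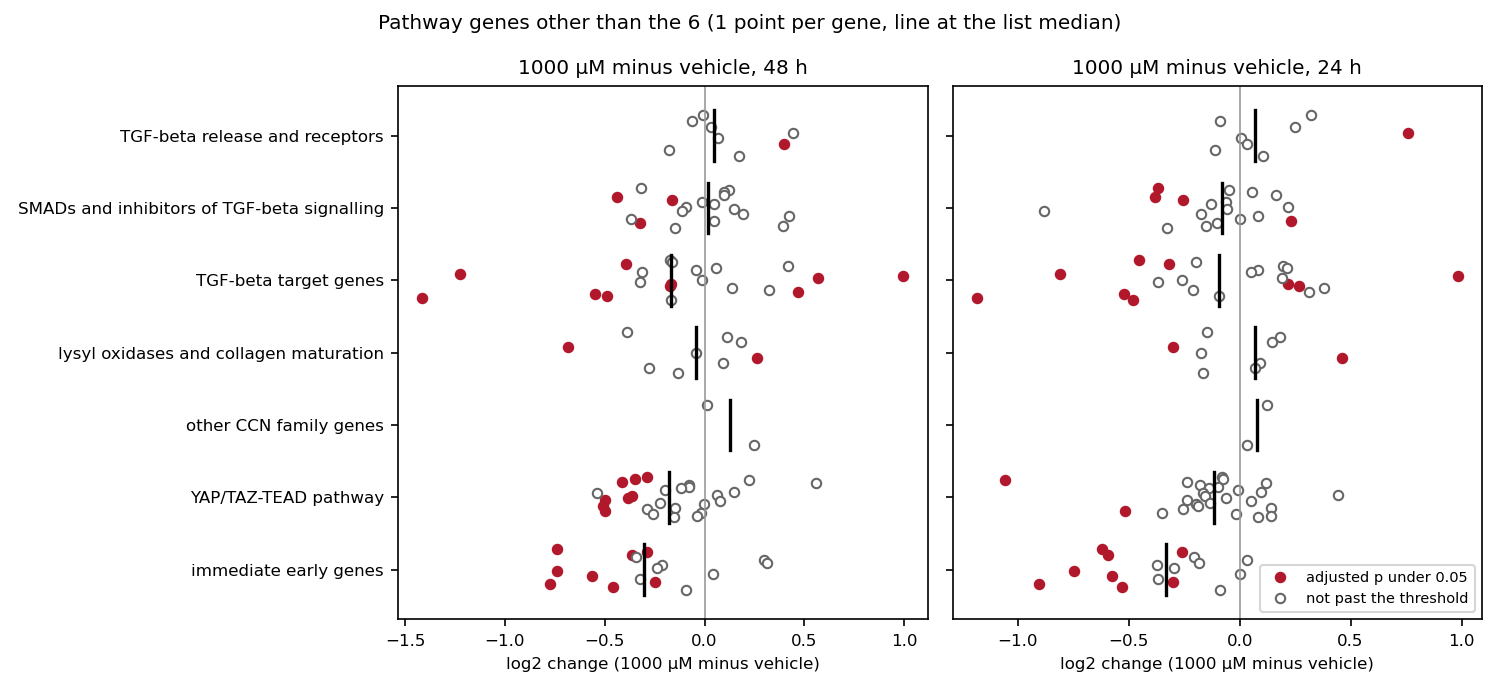
Log2 change at 1000 µM against vehicle, 48 h (left) and 24 h (right), of each tested gene of 7 lists that exclude the 6 members (1 point per gene, filled where the adjusted p was under 0.05, black line at the list median). The lowest points among the TGF-beta targets are Vim and Fn1 and the highest is Id1, and the immediate early list has its medians at -0.30 and -0.33.

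No gene of the 7 lists was called between the doses by limma at either time. In vehicle, 48 against 24 h, 16.4% of all tested genes were called higher and 11.7% lower. Of the 8 release and receptor genes 3 were called higher, led by Itgav (0.46 ± 0.11) and Ltbp1 (0.73 ± 0.19), beside the rise of the main Tgfb2 probe set. Of the collagen maturation genes 4 were called higher, with Plod1 at 0.28 ± 0.06 and P4ha2 at 0.31 ± 0.09. The SMAD list had 3 called higher, with Tgif1 at 0.43 ± 0.08 and Ppm1a at 0.30 ± 0.06, and the YAP/TAZ-TEAD list 6 higher and 1 lower, with Stk3 at 0.42 ± 0.07 and Nf2 at 0.58 ± 0.14. TGF-beta targets had 3 higher and 4 lower, with Ndrg1 at 0.51 ± 0.07 and Id2 at -0.78 ± 0.15, and immediate early genes 5 lower, with Ier2 at -0.49 ± 0.12 and Jun at -0.18 ± 0.05. With array medians centred 1 immediate early gene stayed called lower and Jun was not called. Without the 4 vehicle 48 h arrays of raised ratio 0 genes of these lists were called by limma in this comparison, and 146 of all tested genes. Cell type markers moved in the same comparison. Called lower were 3 of 7 Kupffer cell and leukocyte markers (median log2 change of the list -0.45), 2 of 3 endothelial markers (-0.78) and 3 of 9 hepatocyte markers (-0.11). With array medians centred, 1, 2 and 2 of these lists were called lower. Called higher were 1 of 6 stellate cell markers and 1 of 1 cholangiocyte markers. The part of these markers in the results was not tested.

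In the effect of 250 µM, 48 h minus 24 h, 3.84% of all tested genes were called higher and 4.52% lower, and the calls in these lists were all negative: 5 TGF-beta targets led by Fn1 (-0.67 ± 0.09, limma adjusted p = 2.24e-05) and Ndrg1 (-0.66 ± 0.10), 5 YAP/TAZ-TEAD genes led by Sav1 (-0.66 ± 0.15) and Lats2 (-0.47 ± 0.12), P4ha2 (-0.54 ± 0.12) and Itgav (-0.59 ± 0.15). For 1000 µM, 3 TGF-beta targets were called, led by Klf10 (-0.38 ± 0.08) and Ndrg1 (-0.44 ± 0.10), the third being Fn1 (-0.41 ± 0.09). With array medians centred, the calls at 250 µM were 2 TGF-beta targets, 1 YAP/TAZ-TEAD gene and P4ha2, and at 1000 µM there were 0. Without the 4 vehicle arrays of raised ratio 0 genes of these lists were called in either comparison by limma.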

How the data were processed

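RNA of primary rat hepatocytes was measured on 30 arrays, 5 per group. Each deposited value is a linear intensity that the authors computed for a probe set. MAS5 is named per the submitters' processing notes, with no version. With 2% of values trimmed at either end, array means lay between 1500.56 and 1500.66, so the deposited intensity values share one scale. The number of arrays limits the precision.

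Signals were converted to log2 after adding 1. Of 31099 probe sets, 57 controls and the 40% of lowest mean (limit 7.88, signal 234) were left out, which left 18625, of which 14112 had 1 gene, 340 several and 4173 none. The probe set of highest mean was kept per gene, giving 10528 tested genes. Gene symbols are those of the platform annotation, and 0 were updated through RefSeq.

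limma 3.58.1 in R 4.3.3 fitted the 6 group means in one model with a mean-variance trend, 24 residual degrees of freedom and 9 comparisons. The fit was tested on simulated data. The members, the gene lists and the tests were chosen with earlier results of these data known. From each list the text names up to 4 called genes of smallest p in each comparison with vehicle and up to 2 in the others, and for likeness to Ccn2 the 6 most like and the 3 most opposite genes. Col1a1, Acta2 and the third gene at 1000 µM between times were named outside this rule, after their values were seen. Alternatives were median centring, quantile normalization, added constants of 16 and 64, other filters, every probe set, no trend, only the groups compared, the actin ratio as a covariate, leaving out arrays, and sets of 6 array numbers as a block. The fits of the second probe sets without single arrays were chosen after seeing the data.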

Additional observations from a re-analysis of the deposited data

Results flagged for a closer look

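The effect of 250 µM on the main Lox probe set differed between the times: the log2 change against vehicle was -1.08 at 48 h and -0.34 at 24 h, a difference of -0.74 ± 0.23 (limma adjusted p = 0.0423), which is what singled it out. This difference is built from comparisons with vehicle that were known when Lox was chosen, and is not independent of them. The call was lost with array medians centred (adjusted p = 0.119), with the actin ratio as a covariate (0.183), without the 4 vehicle 48 h arrays of raised ratio (0.492), with no filter (0.0607), no trend (0.0725) or only the groups compared (0.0854), and in 11 of 20 fits without 1 array. The second Lox probe set had -1.16 ± 0.24 (adjusted p = 0.00323). Vehicle 24 h replicate 1 was the lowest vehicle array at 24 h on both probe sets (9433 and 2315), and the difference without it was -0.48 on the main probe set and -0.95 on the second. Dixon's test at its 95% critical value for 5 arrays (0.71), which chance passes in about 1 of 20 groups, singled out no array in 48 groups of the 8 probe sets. This does not clear vehicle 24 h replicate 1 for Lox or vehicle 24 h replicate 5 for Tgfb2, on which values above depended.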

How the results depend on the processing

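Changes of the members against vehicle moved by less than 1 SD between replicates in all 180 alternatives and 160 fits without 1 array. The only signs that turned were those of the main Tgfb2 probe set at 24 h. Its 24 h values, 0.19 and 0.13, were -0.19 and -0.25 without vehicle 24 h replicate 5, a move within that SD. Without the 4 vehicle arrays of raised actin ratio, Ccn1 at 48 h had -0.86 (1000 µM) and -0.89 (250 µM), and Tgfb2 -0.62 at 250 µM. With that ratio as a covariate Tgfb2 at 250 µM and 48 h had -0.69. Lox at 24 h without vehicle replicate 1 had -0.54 at 1000 µM and -0.60 at 250 µM. With the lowest 60% of probe sets left out, Ccn1 was not tested and has no value. Genes called against vehicle numbered 1177 (1000 µM, 48 h) and 1380 (250 µM, 48 h) without the 4 vehicle arrays of raised actin ratio, 2782 (250 µM, 48 h) with that ratio as a covariate, and 1284 (1000 µM) and 1327 (250 µM) at 24 h with array medians centred. Between the doses they numbered 2 (centred) and 3 (only the groups compared) of 7 at 48 h, and 0 (centred), 0 (no trend) and 4 (only the groups compared) of 2 at 24 h. In vehicle over time they numbered 1902 (only the groups compared), 749 (covariate) and 146 (without the 4 arrays). Between times at 1000 µM they numbered 16 (centred), 156 (quantile), 65 (no trend), 36 (only the groups compared) and 38 (without the 4 arrays), and at 250 µM 150 (centred), 248 (covariate) and 58 (without the 4 arrays). Counts with 1 array left out ran from 1 to 20 and from 0 to 3 between the doses at 48 and 24 h, from 2425 to 3690 in vehicle over time, and between times from 63 to 322 (1000 µM) and from 609 to 1789 (250 µM), the highest 2 without vehicle 48 h replicate 4. The 20 came without 1000 µM 48 h replicate 3, and 203 genes were called at 1000 µM between times without vehicle 24 h replicate 1.

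Reversed signs were those of small values: Ccn1 between the doses at 48 h (-0.0143 centred, -0.0117 with the covariate), Ccn2 and Ccn1 in vehicle over time with the covariate (-0.0503 and -0.00177), Ccn2 there without the 4 arrays (-0.0676), Ccn1 at 1000 µM between times (0.069 with the covariate), and Ccn2 at 250 µM between times (0.0159 with the covariate, 0.0324 without the 4 arrays). Ccn2 between the doses at 48 h (0.41) passed with the array-number block. Tgfb2 over time in vehicle (1.51) no longer passed without the 4 arrays, which leaves 1 array in that group. Lox at 250 µM between times no longer passed centred (-0.76), with no filter, no trend or only the groups compared (-0.74 each), with the covariate (-0.71) or without the 4 arrays (-0.75), and the cause was not tested. With 1 array left out, Ccn2 (0.34 to 0.47) and Ccn1 (-0.0832 to 0.13) between the doses at 48 h, Tgfb2 between the doses at 24 h (-0.0558 to 0.14), Lox over time in vehicle (-0.17 to 0.23), Ccn1 at 1000 µM (-0.11 to 0.0503), Tgfb2 at 250 µM (-1.09 to -0.54) and Lox at 250 µM between times (-0.88 to -0.48, past the threshold in 9 of 20) changed sign or call. The second Tgfb2 probe set at 250 µM and 24 h had 0.0935 in place of -0.04 without vehicle 24 h replicate 5. The labels give no replicate number shared by the groups, so the 5 sets of 6 consecutive array numbers, with 1 array per group in each, were the block, and what the numbers mark is not stated. With group means taken out, arrays of a set correlated at -0.124 to 0.223, and 15 of 30 arrays correlated best with their own set out of the 5. The reported fit does not model these sets. Apart from that of Ccn2, the block changed no call of the members and no count of called genes by over 1.5 times.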
